A study of Homo sapiens with 12 samples.

Results

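The genes described here encode 4 families of splicing factors in RT112 cells: the SR proteins (SRSF genes), the hnRNP proteins (HNRNP genes), the small nuclear ribonucleoprotein (snRNP) polypeptides (SNRP genes) and the subunits of the SF3A and SF3B complexes (SF3 genes). Members were the protein-coding genes on chromosomes 1 to 22 and X whose symbol was SRSF plus a number, HNRNP or SNRP plus letters (with any digits that follow), or SF3A or SF3B plus a number. This took 59 of 19618 genes, made up of 12 SRSF, 26 HNRNP, 12 SNRP and 9 SF3 genes. RT112 cells derive from a human transitional cell carcinoma of the bladder and count as ARID1A wild type in the study. ARID1A belongs to SWI/SNF, a complex that remodels chromatin. CUT&RUN, where a nuclease tethered to an antibody releases the DNA next to the antibody's target, was carried out with an ARID1A antibody from Abcam, an ARID1A antibody from CST, an antibody against H3K4me3 (a mark of active promoters) and IgG, in 3 replicates each (12 samples in 4 groups). The authors merged the called regions of the 3 replicates, so each antibody has 1 list of positions. These lists give no signal, no replicate error can be stated, the depth is unknown, and IgG regions were not analysed here. All samples came from this single line, and its identity could be checked only through H3K4me3, which lay with both ARID1A antibodies at the promoters of 10 of 10 urothelial and epithelial marker genes, whereas no region lay at any of 10 marker genes of other cell types.

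Splicing removes introns from pre-mRNA. SR proteins bind exonic enhancers and recruit the splicing machinery, and hnRNP proteins coat nascent transcripts and often counter SR proteins at silencer elements, so that the balance between these families sets the choice of many alternative exons. The SNRP genes encode proteins of the U1 and U2 snRNPs and the Sm proteins, a ring that assembles on spliceosomal snRNAs, and SF3A and SF3B are parts of the U2 snRNP that bind around the branch point. Most of these proteins are needed in every dividing cell.

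A promoter was the 1 kb on either side of any annotated transcription start site (TSS), and a gene counted for a list when a region overlapped it. Reference promoters are shown first, to let the letters be read beside the regions. For each family the member with the largest mean width of its Abcam and CST regions and, where the family had one, the first member in the alphabet with H3K4me3 and no ARID1A region were taken, passing over members for which the RefSeq table (GRCh38.p14, 250 bases before to 50 after a start) had no entry or under 100 bases free of annotated exons. The exon-free bases are printed 5′ to 3′ on the strand of the gene. Capitals mark the words searched below on either strand. The stretches of SRSF6 (chr20:43457646-43457892, plus strand), HNRNPL (chr19:38849987-38850236, minus strand), SNRPD2 (chr19:45691993-45692153, minus strand) and SF3B6 (chr2:24076374-24076525, minus strand) lay wholly inside regions of Abcam, CST and H3K4me3.
SRSF6: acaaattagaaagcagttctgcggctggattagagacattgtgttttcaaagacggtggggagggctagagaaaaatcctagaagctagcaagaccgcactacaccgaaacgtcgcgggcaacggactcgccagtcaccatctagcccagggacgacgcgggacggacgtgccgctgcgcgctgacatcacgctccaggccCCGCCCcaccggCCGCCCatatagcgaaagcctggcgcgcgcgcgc
HNRNPL: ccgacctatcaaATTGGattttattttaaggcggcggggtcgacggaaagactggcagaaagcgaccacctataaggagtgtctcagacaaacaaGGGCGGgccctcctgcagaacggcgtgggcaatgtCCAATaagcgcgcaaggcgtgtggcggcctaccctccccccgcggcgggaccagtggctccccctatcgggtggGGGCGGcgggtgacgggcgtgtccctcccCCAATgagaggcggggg
SNRPD2: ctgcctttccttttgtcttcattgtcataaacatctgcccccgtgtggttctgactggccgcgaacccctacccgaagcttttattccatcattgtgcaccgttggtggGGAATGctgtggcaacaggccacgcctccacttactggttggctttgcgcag
SF3B6: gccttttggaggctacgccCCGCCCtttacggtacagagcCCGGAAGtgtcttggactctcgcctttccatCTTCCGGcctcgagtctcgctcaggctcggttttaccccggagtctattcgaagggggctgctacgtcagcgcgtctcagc
The capitals are 2 GC boxes in SRSF6, 3 CCAAT boxes and 2 GC boxes in HNRNPL, 1 TEAD word in SNRPD2, and 2 ETS words and 1 GC box in SF3B6. The stretches of SNRPN (chr15:24954737-24954934, plus strand) and SF3A3 (chr1:37990076-37990272, minus strand) lay wholly inside an H3K4me3 region and in no ARID1A region.
SNRPN: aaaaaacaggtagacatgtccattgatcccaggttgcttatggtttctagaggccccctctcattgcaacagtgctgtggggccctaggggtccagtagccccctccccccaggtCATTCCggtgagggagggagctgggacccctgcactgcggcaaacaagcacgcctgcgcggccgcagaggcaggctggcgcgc
SF3A3: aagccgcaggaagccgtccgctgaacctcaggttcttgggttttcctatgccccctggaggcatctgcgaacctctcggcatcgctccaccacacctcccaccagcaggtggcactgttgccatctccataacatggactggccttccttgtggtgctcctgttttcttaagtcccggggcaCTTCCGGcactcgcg
The capitals are 1 TEAD word in SNRPN and 1 ETS word in SF3A3. GC content of the 6 stretches ran from 54.0% in SNRPD2 to 64.0% in HNRNPL.

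Of the 59 genes, 52 carried an H3K4me3 region at the promoter, against 53.1% of all protein-coding genes, and 38 carried regions of both ARID1A antibodies (64.4%, 95% exact binomial interval 50.9 to 76.4), against 38.2% of all protein-coding genes. Among the 52 with H3K4me3, the share with both antibodies was 73.1% (59.0 to 84.4), and among the other 10357 genes with promoter H3K4me3 it was 63.7%, a value inside that interval. Taken singly, Abcam regions lay at 46 of the 52 (88.5%, 76.6 to 95.6, other genes with H3K4me3 76.2%) and CST regions at 39 (75.0%, 61.1 to 86.0, other genes 68.7%). The interval for Abcam began just above the share in other genes, and the interval for CST held it. Abcam without CST was found at 8 members (15.4%, 6.88 to 28.1, other genes 12.5%), CST without Abcam at 1 (1.92%, 0.0487 to 10.3, other genes 4.95%) and neither antibody at 5 (9.62%, 3.20 to 21.0, other genes 18.8%). The remaining 7 members had no region of any list. These intervals cover counting error alone and take each gene as independent, and no test was made between the members and other genes. The order of members and other genes turned when regions narrower than the median of their own list were dropped. Both antibodies were then left at 20 members, of which 19 were among the 41 with H3K4me3 (46.3%), against 49.1% of 5647 other genes with H3K4me3. H3K4me3 regions were filtered too, so these sets of genes differ from the 52 and 10357 above. No interval was computed for this setting, and the turn was not tested. By family these 20 were 5 SRSF, 11 HNRNP, 3 SNRP and 1 SF3 gene.

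The counts were unequal between the families. Among genes with H3K4me3, both antibodies lay at 10 of 11 SRSF genes (90.9%, 58.7 to 99.8) and 18 of 20 HNRNP genes (90.0%, 68.3 to 98.8), but at 7 of 12 SNRP genes (58.3%, 27.7 to 84.8) and 3 of 9 SF3 genes (33.3%, 7.49 to 70.1). For the SRSF and HNRNP genes together this was 28 of 31 (90.3%, 74.2 to 98.0), with no gene lacking both antibodies, which allows a share of up to 11.2%. For the SNRP and SF3 genes together it was 10 of 21 (47.6%, 25.7 to 70.2), and these hold all 5 genes with H3K4me3 and neither antibody. Taken singly, the HNRNP interval lay above the 63.7% of other genes with H3K4me3, and the intervals of SRSF, SNRP and SF3 held that value. The families were paired after these counts were seen, so the intervals of the pairs are no support for the split. The counts above take any TSS of a gene. With the Ensembl canonical TSS alone, both antibodies lay at 9 SRSF, 18 HNRNP, 7 SNRP and 3 SF3 genes. With the most upstream TSS alone they lay at 8, 18, 7 and 3. The split was not tested.

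**Figure D1:**
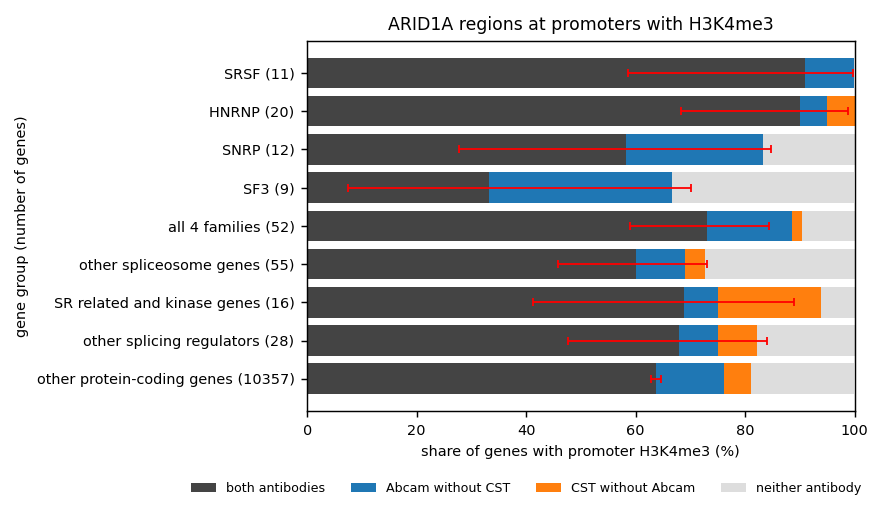
Share of genes with promoter H3K4me3 (x axis, %) that had regions of both ARID1A antibodies, of 1 antibody or of neither, for each family and comparison group, with the number of genes in brackets. Red bars are 95% exact binomial intervals of the share with both antibodies, which was 90.9% for SRSF, 90.0% for HNRNP, 58.3% for SNRP, 33.3% for SF3 and 63.7% for other protein-coding genes.

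Other genes of the splicing pathway gave shares whose intervals held the 63.7% of other genes with H3K4me3. Both antibodies lay at 33 of 55 further spliceosome genes with H3K4me3 (60.0%, 45.9 to 73.0), at 11 of 16 genes for SR related proteins and SR protein kinases (68.8%, 41.3 to 89.0), and at 19 of 28 other splicing regulators (67.9%, 47.6 to 84.1). In the spliceosome group, PRPF8, which forms the core of the catalytic centre, carried both (Abcam 1902 bp, CST 1445 bp), as did U2AF2, which binds the polypyrimidine tract (2395 and 2482 bp), and SF1, which binds the branch point (2261 and 2358 bp). PRPF31, a tri-snRNP protein, and LSM2, a subunit of the U6-binding ring, had H3K4me3 without ARID1A. Among the kinases that phosphorylate SR proteins, SRPK1 had a region of 2790 bp with Abcam and of 2794 bp with CST, CLK1 only narrow ones of 706 and 807 bp, and CLK2 a CST region of 1575 bp without Abcam. The epithelial splicing regulators ESRP1 (4997 bp with Abcam, 6759 bp with CST) and ESRP2 (5007 and 4305 bp) had ARID1A regions wider than those of any of the 59 members in either list. The same held for MBNL2, another of the splicing regulators (4640 bp with Abcam, 5181 bp with CST).

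Abcam regions lay at all 11 SRSF promoters with H3K4me3. SRSF2, which recognises exonic enhancers, had the largest mean ARID1A width of the family and its widest CST and H3K4me3 regions, with 2163 bp for Abcam (chromosome 17, 76736461 to 76738623, hg38), 3220 bp for CST (76735715 to 76738934) and 7353 bp for H3K4me3 (76732416 to 76739768), and these were wider than 80.1%, 95.1% and 98.9% of their lists. Its start lies 54 bp from that of MFSD11 on the other strand, so these regions overlap the promoters of both genes. SRSF1, the founding SR protein, had widths of 2167, 1811 and 4117 bp for Abcam, CST and H3K4me3. In SRSF6 they were 2285, 1671 and 3955 bp, and in SRSF5, which like SRSF6 has a pair of RNA recognition motifs, 1903, 1934 and 3651 bp. The Abcam widths of these 4 genes thus fell within 1903 to 2285 bp, while their CST widths spread from 1671 to 3220 bp.

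Among the other SRSF promoters, the antibodies gave similar widths at SRSF4 (Abcam 1619 bp, CST 1437 bp) and SRSF8 (1968 and 1784 bp). They differed more at SRSF3 (1318 and 1911 bp), and disagreed in presence, width or position at SRSF7, SRSF9, SRSF10 and SRSF11. SRSF7, an SR protein with a zinc knuckle, was the single SRSF gene with H3K4me3 (3191 bp) that lacked CST at every TSS. Its Abcam region measured 1494 bp (chromosome 2, 38750183 to 38751676), and the nearest CST region lay 6601 bp from a TSS. At SRSF10, which can act as a splicing repressor, Abcam gave 2328 bp and CST only 915 bp, ending 155 bp upstream of the nearest TSS. In SRSF9 and SRSF11 the widest regions of the antibodies lay at different TSSs. The start of SRSF9 that lies 102 bp from one of DYNLL1 had an Abcam region of 2194 bp without CST, and the antibodies met at another TSS of SRSF9, with an Abcam region of 1387 bp and a CST region of 1006 bp. The H3K4me3 region of SRSF9 (3094 bp) lay at the start near DYNLL1 and not at the other TSS. SRSF9 thus counts as a gene with H3K4me3 and both antibodies only across its TSSs. The start of SRSF11 that lies 103 bp from that of LRRC40 likewise had Abcam alone (1548 bp), and Abcam (1062 bp) and CST (1295 bp) overlapped at another SRSF11 TSS. SRSF12 had no region of any list, with the nearest Abcam region 35744 bp and the nearest CST region 35516 bp from its TSSs.

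The widest Abcam and H3K4me3 regions of the 59 genes lay at hnRNP genes. HNRNPL, which binds CA-rich elements, had the widest Abcam region of any member, 4455 bp (chromosome 19, 38848885 to 38853339, wider than 98.3% of the list). CST had a pair of regions there, of 2798 and 1102 bp, and H3K4me3 1 region of 5803 bp. HNRNPUL2, a relative of the scaffold attachment factor HNRNPU, had 2820 bp for Abcam, 3005 bp for CST and 7135 bp for H3K4me3. HNRNPA2B1, which acts in the splicing and transport of RNA, had the widest H3K4me3 region of all members, 8578 bp (chromosome 7, 26196415 to 26204992, wider than 99.4% of its list), with 3171 bp for Abcam and 2349 bp for CST. Its start lies 115 bp from that of CBX3, and the same regions cover both. HNRNPF, which binds G-rich tracts, had regions at a pair of TSSs, with 2449 bp (Abcam) and 2755 bp (CST) at one and 1367 bp and 2582 bp at the other.

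HNRNPH1 and HNRNPH2, close relatives of HNRNPF, were the HNRNP genes with H3K4me3 that lacked an antibody, and they lacked different ones. HNRNPH1 had an Abcam region of 2066 bp, wider than 77.3% of the list, inside an H3K4me3 region of 5611 bp, and no CST region within 57007 bp of a TSS. HNRNPH2, on the X chromosome, had a CST region of 1504 bp (101407164 to 101408667) with H3K4me3 of 3313 bp, and the nearest Abcam region lay 356024 bp away. HNRNPC, which binds uridine tracts, had both antibodies at 2 TSSs. The pair at its upstream start (Abcam 1299 bp, CST 1201 bp) lay under H3K4me3, and the wider pair (Abcam 1539 bp, CST 1369 bp) lay downstream of another TSS without covering it, with midpoints 1190 bp (Abcam) and 1104 bp (CST) away, outside the H3K4me3 region of 3872 bp. At HNRNPR the Abcam region of 2226 bp covered a TSS whereas the CST region of 984 bp ended 137 bp upstream of it.

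The 6 HNRNP genes without any region were HNRNPA1L2, HNRNPA1L3 and HNRNPCL1 to HNRNPCL4, which are close copies of HNRNPA1 and HNRNPC. The authors removed reads that map to several places, so the absence of regions at these copies is uncertain. With the copies and SRSF12, the 7 members without H3K4me3 were also the ones without any ARID1A region, whereas 9.41% of other genes without H3K4me3 had both antibodies.

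**Figure D2:**
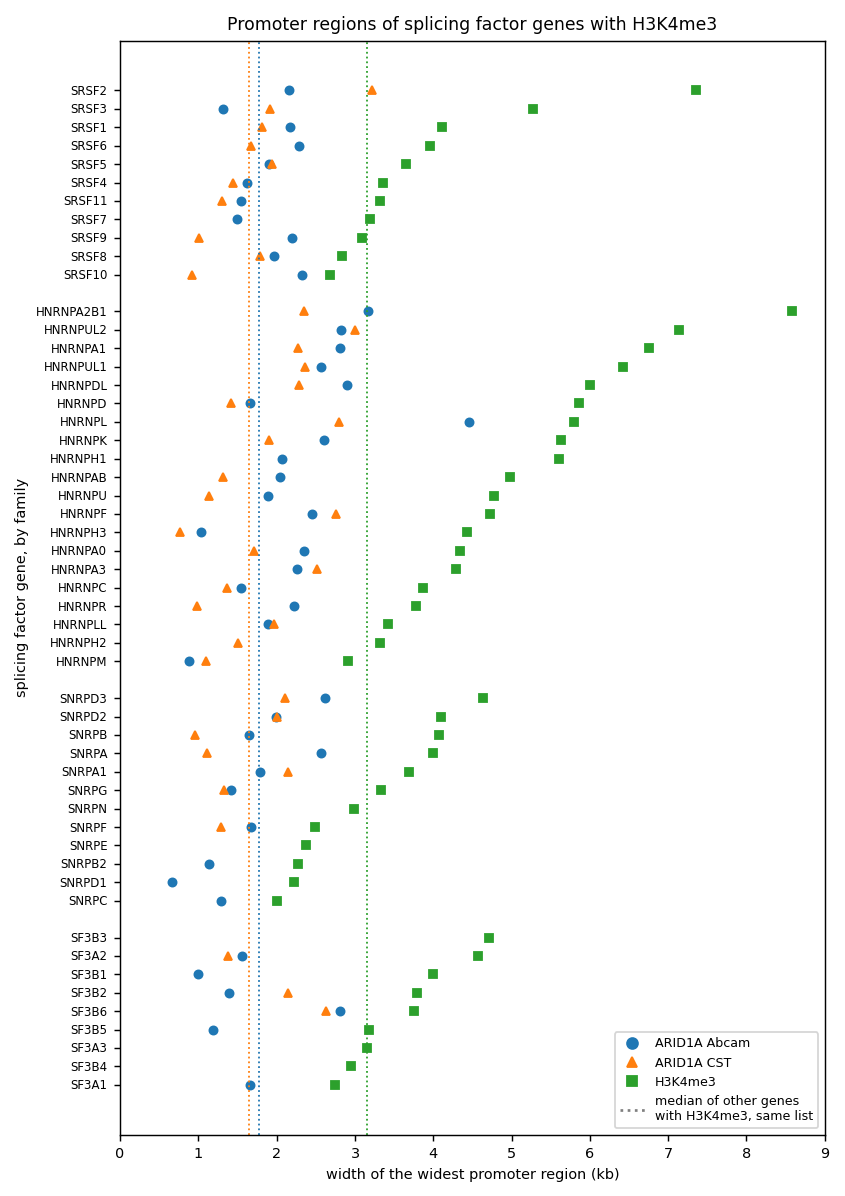
Width of the widest promoter region of each of the 52 genes with H3K4me3 (x axis, kb), by family and in order of H3K4me3 width, for Abcam (blue circles), CST (orange triangles) and H3K4me3 (green squares), each from 1 list merged over replicates. A missing symbol means no region at the promoter, and dotted lines are the medians of the other genes with H3K4me3 (1780, 1650 and 3153 bp). All HNRNP genes but HNRNPM lie to the right of the H3K4me3 line, and SNRPC, SNRPD1, SNRPB2 and SNRPE lie at its far left.

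The SNRP genes were more mixed. Among the Sm proteins, which form the ring shared by spliceosomal snRNPs, SNRPD3 had 2617 bp for Abcam, 2111 bp for CST and 4635 bp for H3K4me3, and SNRPD2 1994, 2007 and 4100 bp. Widths were smaller at SNRPB (Abcam 1645 bp, CST 950 bp), SNRPF (1673 and 1289 bp) and SNRPG (1418 and 1331 bp). SNRPD1 had only an Abcam region of 664 bp (chromosome 18, 21612203 to 21612866), the narrowest of all members and wider than just 2.51% of its list, and SNRPE had neither antibody, with the nearest regions 25135 bp (Abcam) and 24921 bp (CST) away. Of these 7 Sm genes, 6 thus had an Abcam region and 5 a CST region.

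Of the proteins of single snRNPs, SNRPA, which binds a stem loop of U1 snRNA, had 2565 bp for Abcam and 1111 bp for CST, and SNRPA1, a U2 protein, 1791 and 2144 bp. SNRPB2, the partner of SNRPA1 on U2 snRNA, had Abcam alone (1133 bp), with the nearest CST region 154243 bp from a TSS. SNRPC, which steadies the contact of U1 with the 5′ splice site, had Abcam alone as well (1288 bp), overlapping the narrowest H3K4me3 region of any member (2001 bp). SNRPN, an imprinted gene that encodes an Sm protein and shares its promoter with SNURF, had H3K4me3 of 2981 bp (chromosome 15, 24954205 to 24957185) and neither antibody at any TSS. The closest ARID1A regions of SNRPN, 4406 bp (Abcam) and 4216 bp (CST) from another of its TSSs, lay in an intron.

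In the SF3 complexes, SF3B6, which contacts the branch point adenosine, had the widest ARID1A regions, with 2804 bp for Abcam, 2627 bp for CST and 3752 bp for H3K4me3. SF3B2 had 1386, 2141 and 3793 bp, and SF3A2 1561, 1376 and 4575 bp. These 3 genes were the SF3 genes with both antibodies. SF3B1, the large subunit that is a recurrent target of mutations in cancer, had an Abcam region of 993 bp (chromosome 2, 197434601 to 197435593, wider than 16.2% of its list) and no CST region within 17462 bp, under H3K4me3 of 4001 bp. SF3A1 (Abcam 1662 bp) and SF3B5 (Abcam 1188 bp) also lacked CST. SF3A3, SF3B3 and SF3B4 had H3K4me3 of 3148, 4711 and 2950 bp and neither antibody, with the nearest Abcam regions 21693, 41172 and 8396 bp from a TSS. SF3B3 had the widest H3K4me3 region of the 5 genes without ARID1A and of the whole SF3 family.

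The H3K4me3 regions of the members had a larger median width than those of other genes. It was 3914 bp (95% interval 3361 to 4339, range 2001 to 8578, n = 52) against 3153 bp in the other genes, a value outside that interval. Such a median was not particular to the members. SR related and SR protein kinase genes had 3956 bp (2859 to 4735, n = 16) and other splicing regulators 3818 bp (3016 to 4654, n = 28). The further spliceosome genes had 2903 bp (2641 to 3212, n = 55). These 3 intervals held the 3153 bp of other genes. The HNRNP genes had the highest median of the 4 families, 4882 bp (4293 to 5860, n = 20), followed by SF3 (3752 bp, 2950 to 4575, n = 9), SRSF (3361 bp, 2829 to 5278, n = 11) and SNRP (3157 bp, 2266 to 4067, n = 12). The intervals of SF3, SRSF and SNRP overlapped one another and each held the median of other genes, so the order of these 3 families is not resolved. ARID1A regions of members had medians close to those of other genes, with 1936 bp for Abcam (1645 to 2226, n = 46, other genes 1780 bp) and 1784 bp for CST (1369 to 2111, n = 39, other genes 1650 bp). Within Abcam, the HNRNP median of 2261 bp (1885 to 2805) lay above 1780 bp with its interval, and those of SRSF (1968 bp), SNRP (1659 bp) and SF3 (1474 bp) had intervals that held it.

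The share with both antibodies was higher the wider the H3K4me3 region, in members and in other genes. Genes with H3K4me3 were split at the quartiles of its width (2567, 3156 and 3893 bp). From the narrowest to the widest class, both antibodies lay at 1 of 5, 4 of 8, 10 of 13 and 23 of 26 members (20.0%, 50.0%, 76.9% and 88.5%), and at 49.0%, 59.7%, 66.6% and 79.8% of other genes. The widest class held 26 of the 52 members (50.0%) and 24.9% of other genes, and within it the interval of the members (69.8 to 97.6) held the share of other genes. It held 15 of 20 HNRNP genes, of which 14 had both antibodies, and 4 of 11 SRSF genes, all 4 with both. It also held 4 of 12 SNRP genes, all 4 with both, and 3 of 9 SF3 genes, of which SF3A2 alone had both. The narrowest class held 5 SNRP genes and no gene of the other families, and of those 5 only SNRPF had both. The order of the families by width cannot be set against their order by ARID1A share. The order of SF3, SRSF and SNRP by median H3K4me3 width is not resolved, nor are the ARID1A shares of SRSF (90.9%) and HNRNP (90.0%) told apart. The part of H3K4me3 width in the family shares was not tested.

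**Figure D3:**
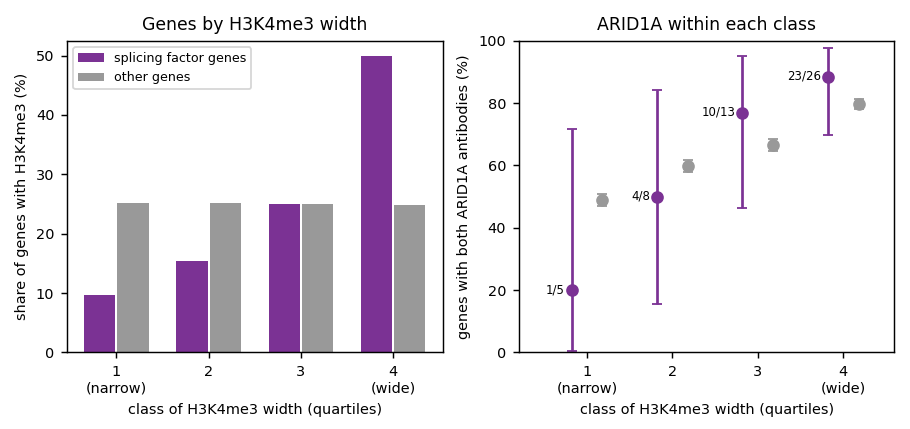
Left, share of genes with H3K4me3 (y axis, %) in each quartile class of H3K4me3 width; right, share of each class with both ARID1A antibodies (y axis, %), with 95% exact binomial intervals and, for the members, counts. Splicing factor genes (purple) have 50.0% of their number in the widest class, and the share with both antibodies goes from 20.0% to 88.5% across classes, against 49.0% to 79.8% in other genes (grey).

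Where both antibodies were present, their regions overlapped in all 38 members, and the widest ones did so in 36, SRSF9 and SRSF11 being the exceptions described above. The Abcam region was the wider in 27 of the 38 (71.1%, other genes 63.6%), by a median of 244 bp (other genes 177 bp), and the overlap made up a median of 73.6% of the joint extent (other genes 72.5%). Where Abcam stood without CST, its regions had a smaller median width, 1238 bp (664 to 2066, n = 8) against 2101 bp (875 to 4455, n = 38) at members with both. Other genes gave 1389 and 1891 bp in the same comparison. Positions alone do not show whether a missing region fell narrowly below the authors' calling threshold.

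ARID1A regions lay around the TSS. The midpoint of the widest Abcam region lay at a median of -27.0 bp from the nearest TSS (interval -108 to 82.0, n = 46, negative values upstream) and that of CST at -11.0 bp (-172 to 32.0, n = 39). Other genes with H3K4me3 gave -9.00 and -22.0 bp. A TSS was covered by 45 Abcam regions (97.8%, other genes 94.9%) and 36 CST regions (92.3%, other genes 92.6%), so members were like other genes here. Only regions overlapping a promoter were measured, from the nearest TSS, which favours midpoints close to it. Measured from the canonical TSS alone, the medians of the members were -71.5 bp for Abcam and -172 bp for CST. H3K4me3 regions were shifted into the gene, with a median midpoint at 296 bp (163 to 435, n = 52, other genes 164 bp). They reached a median of 1534 bp upstream and 2282 bp downstream (other genes 1369 and 1721 bp), and reached further downstream than upstream in 41 of 52 members (other genes 68.8%), among them 11 of 11 SRSF genes. Abcam regions lay wholly inside an H3K4me3 region at 42 of 46 members (91.3%, other genes 74.8%) and CST regions at 32 of 39 (82.1%, other genes 75.5%), covering a median of 48.2% and 39.9% of it (other genes 55.2% and 49.6%). In these counts the ARID1A regions of members lay inside H3K4me3 more often and took a smaller part of it than in other genes, beside the larger H3K4me3 widths given above.

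**Figure D4:**
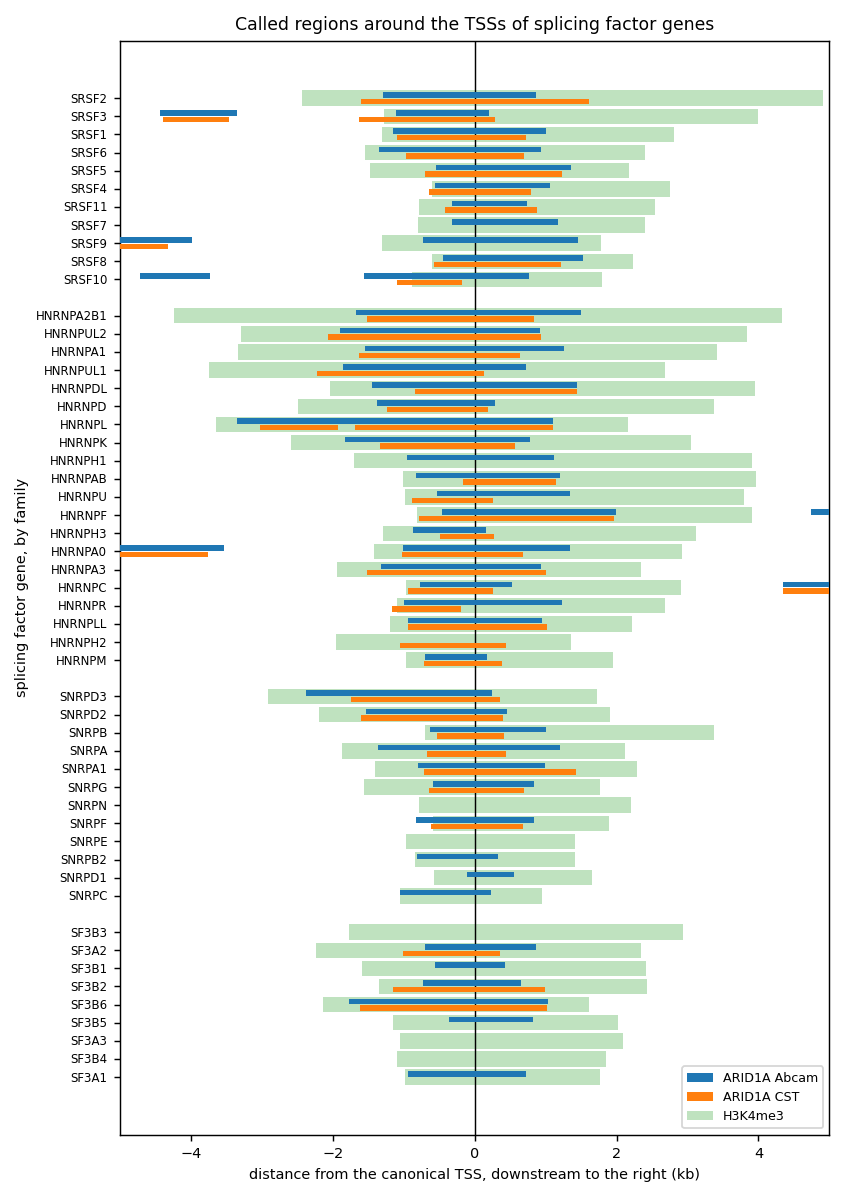
Called regions of Abcam (blue), CST (orange) and H3K4me3 (pale green) around the Ensembl canonical TSS of the 52 genes with H3K4me3 (x axis, kb from the TSS, with downstream to the right, cut at 5 kb on either side). ARID1A regions lie around the TSS inside H3K4me3 regions that mostly reach further downstream, SNRPN, SNRPE, SF3A3, SF3B3 and SF3B4 have H3K4me3 alone, and at SRSF9 the canonical TSS has Abcam without CST.

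Some members share a promoter with a neighbour. A protein-coding gene on the other strand started within 1 kb upstream of a TSS at 17 of the 52 (32.7%, other genes with H3K4me3 24.2%, no interval computed). The distances were 40 bp (SRSF7 with GEMIN6) to 612 bp (HNRNPUL2 with TTC9C). Further pairs were HNRNPA1 with CBX5 (71 bp), HNRNPK with RMI1 (167 bp), SNRPD3 with GUCD1 (64 bp) and SF3A2 with PLEKHJ1 (90 bp). In all 17 the same H3K4me3 region overlapped both promoters, and in 15 an Abcam region did, so that these regions cannot be assigned to either gene. Regions of members outside this count, such as those of HNRNPH3 at PBLD, could also overlap the promoter of another gene. Both antibodies lay at 13 of these 17 (76.5%, other genes 68.9%) and at 25 of 35 members without such a neighbour (71.4%, other genes 62.1%). By number of annotated TSSs, both antibodies lay at 4 of 7 members with 1 TSS (57.1%, other genes 58.8%), 15 of 23 with 2 to 5 (65.2%, other genes 61.6%) and 19 of 22 with 6 or more (86.4%, other genes 69.9%).

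Outside promoters, ARID1A regions were few in these genes. Beyond 1 kb from a TSS, Abcam regions lay inside 8 of the 52 (15.4%, other genes 34.5%) and CST regions inside 6 (11.5%, other genes 33.4%), and the members were shorter, with a median of 15.4 kb against 34.1 kb. Per 10 kb of gene outside promoters there were 0.0844 Abcam and 0.0656 CST regions, against 0.144 and 0.129 in other genes. Beyond 3 kb from a TSS these rates were 0.102 and 0.0792, against 0.142 and 0.126. The rates of the members rest on only 9 Abcam and 7 CST regions, and no interval was computed for them. Overlapping regions of both antibodies lay within HNRNPC, HNRNPL, SF3B3, SNRPN and SRSF5. In SF3B3, whose promoter had no ARID1A region, they lay near the far end of the gene (chromosome 16, 70568073 to 70569397 with Abcam, 70568151 to 70569665 with CST), with midpoints in an intron and overlapping an exon. In HNRNPL they measured 3336 bp (Abcam, chromosome 19, 38836588 to 38839923) and 3482 bp (CST, 38836630 to 38840111) and overlapped the promoter of another annotated gene without a symbol. In SRSF5 a pair of regions of each antibody lay in an intron, from 924 to 1440 bp wide. SRSF3, an SR protein that regulates its own splicing, had an Abcam region of 3151 bp over an exon 10339 bp from a TSS without CST. The remaining regions were single ones of Abcam in HNRNPF (1551 bp) and SRSF9 (1388 bp) and of CST in SNRPD3 (1790 bp), and among all these regions only that of SRSF9, at the promoter of DYNLL1, overlapped H3K4me3.

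The promoters were searched on both strands for 10 short words known for factors that bind near TSSs, in the 300 bases from RefSeq. Entries matched 53 of 59 members, 48 of them with H3K4me3, and 15276 genes in all, and HNRNPA1, HNRNPA1L3, HNRNPCL3, SF3B3, SNRPD1 and SRSF2 had no match. None of the words contains another. The CCAAT box (CCAAT, known for NF-Y) was found in 43.8% of the 48 (29.5 to 58.8), in 37.8% of other genes with H3K4me3 and in 36.5% of all promoters. The families were unequal, with 15 of 19 HNRNP promoters (78.9%, 54.4 to 93.9) against 2 of 10 SRSF, 3 of 11 SNRP and 1 of 8 SF3. The ETS word (CCGGAAG) was found in 35.4% of members (22.2 to 50.5; 22.5% of other genes with H3K4me3, 14.7% of all), and here the counts ran the other way, with 6 of 8 SF3 (75.0%, 34.9 to 96.8) and 6 of 11 SNRP promoters against 3 of 19 HNRNP and 2 of 10 SRSF.

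Read by ARID1A, CCAAT lay in 19 of 36 members with both antibodies (52.8%, 35.5 to 69.6) and 2 of 12 without both (16.7%), and in 41.5% and 31.1% of other genes. The ETS word lay in 11 of 36 (30.6%) and 6 of 12 (50.0%), and in 19.1% and 28.7% of other genes. These counts go with the families as well as with ARID1A, and the part of each was not tested. Within the SF3 family, the ETS word lay at every gene with both antibodies (SF3A2, SF3B2, SF3B6) and at SF3A1, SF3A3 and SF3B4 without both. In the SNRP family it lay at SNRPA1, SNRPB and SNRPG with both and at SNRPB2, SNRPC and SNRPE without. The HNRNP and SRSF promoters with the word all had both antibodies, and few genes of these families lacked both. The GC box (GGGCGG, known for SP and KLF factors) was found in 58.3% of members (43.2 to 72.4), below the 76.0% of other genes with H3K4me3 (61.8% of all), at a median GC content of 62.8% against 66.7%. This order turned in the 200 bp around the midpoint of the Abcam region, where the GC box was found in 54.3% of the 46 members with such a region and 50.7% of other genes with one. TATAAA was found in 7 of the 48 (14.6%, 6.07 to 27.8; 4.48% of other genes, 9.43% of all, with the order also turned in the 200 bp window), which were HNRNPAB, HNRNPC, HNRNPD, SNRPC, SRSF3, SRSF7 and SRSF11. Of the rest, the NRF1 core GCATGCGC was found in 10.4% (6.22% of other genes with H3K4me3, 4.37% of all, the order again turned in the 200 bp window), the YY1 word AAGATGGC in 6.25% (6.43%, 4.16%), the E-box CACGTG in 12.5% (10.5%, 8.86%), the AP-1 word TGANTCA in 8.33% (3.50%, 5.51%), the TEAD word GGAATG in 8.33% (9.84%, 11.3%) and the CRE TGACGTCA in none (3.84%, 2.77%), which allows up to 7.40%. A word is a description of the letters and not a binding site.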

How the data were processed

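CUT&RUN regions of ARID1A (2 antibodies, Abcam and CST) and H3K4me3 in RT112 cells were used. Per the study's methods, the authors trimmed reads (cutadapt), aligned them to GRCh38 and the E. coli genome (bwa-mem2), removed PCR duplicates (Picard) and reads without a unique position (samtools), scaled replicates by spike-in reads, called peaks with SEACR and merged replicate peaks (bedtools). The methods name the relaxed mode and the names of the lists the stringent one, so the threshold is uncertain. They also state that only a top fraction of the peaks was kept, so a region missing from a list may have fallen outside that fraction. The submitters' notes name the build hg38 and no versions. CUT&RUN was carried out on all samples in 1 batch, and the sources used here give neither the members of the library batches nor whether replicates were separate cultures.

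The 3 deposited lists hold chromosome, start and end without counts, signal or score. On chromosomes 1 to 22 and X they held 37501 (Abcam), 32932 (CST) and 9765 (H3K4me3) regions, with median widths of 1486, 1442 and 3046 bp, and 325 regions on other sequences were left out. Being merged, they give neither replicate spread nor depth. A merged region may come from only 1 of the replicates, and coordinates are printed counting from 1.

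Protein-coding genes came from GENCODE 44 and were joined by symbol. A region counted at a promoter when it shared at least 1 bp with the 1 kb on either side of any TSS of a protein-coding transcript, and the widest such region stood for the gene. Shares carry 95% exact (Clopper-Pearson) intervals and medians exact order-statistic intervals, computed with Python 3.11.15, numpy 2.4.6 and scipy 1.17.1; counting was tested on simulated regions. Reference promoters agreed letter for letter with hg38 at 53 of 53 members. Widths are given for the 4 members of each family with the largest mean width of both antibodies and for members that lack a list, disagree between antibodies or have regions inside the gene. A few others, such as SRSF9, SRSF10, SRSF11, HNRNPR and the genes named from other lists, were chosen after their values were seen. The members and lists were chosen with earlier results of these data known. Alternatives were other windows, TSSs, widths, overlaps, joining of regions, each antibody alone and another sequence window.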

Additional observations from a re-analysis of the deposited data

How the results depend on the processing

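Of 45 alternatives to the values above, 40 moved them by less than 1.5 times or by less than their interval, and 5 moved them further. Windows of 500 bp or 3 kb, an overlap of at least 200 bp with the promoter, joining of regions under 500 bp apart and the demand that regions of both antibodies overlap each other all left 38 members with both antibodies. The most upstream TSS gave 36 and the canonical TSS 37. Dropping regions narrower than their list's median gave 20, by its own construction of fewer regions, and turned the order of members and other genes with H3K4me3 (46.3% against 49.1%). That setting also dropped narrow H3K4me3 regions, which left 41 members and 5647 other genes to compare. In 8 settings of promoter, width and joining, the main one included, 19 members kept both antibodies throughout. No member gained them, which by construction only the 3 kb window and the joining could have allowed. Taking only letters after HNRNP or SNRP gave 39 members, 38 with H3K4me3 and 28 with both. In 200 bp around the midpoint of the Abcam region, a shorter window than the reference promoter, CCAAT was found in 23.9% of the 46 members with one, the ETS word in 10.9%, the NRF1 core in 0%, TATAAA in 2.17% and the GC box in 54.3%, against 21.3%, 9.31%, 1.87%, 3.33% and 50.7% of other genes. The order of members and other genes turned for the last 3 of these words, so the word shares of the report hold only for its 300-base window. Taking midpoints from the canonical TSS moved their medians to -71.5 bp (Abcam) and -172 bp (CST). No paired analysis was possible because the lists merge the replicates, and for the same reason no replicate could be left out. Depth is unknown and limits the absence of a region in any list.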
